A study of Mus musculus with 185 samples.

Results

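The comparison set brains of mice that had eaten nothing for 16 h against brains of mice that had been offered a high-fat diet (HFD) for the same 16 h. Its members were the 6 fasted and the 6 HFD mice of the 16 h study, 12 of the 37 mice of the series, and the counts of the 5 libraries of each mouse were added up, which used 60 of 185 libraries. All mice were male C57BL/6 J, an inbred laboratory strain, and 8 weeks old. In the 16 h study they lived 2 to a cage, with 3 cages on HFD (D12331), 3 cages without food and 3 cages on chow (Altromin 1324), and all had water. A cage of each diet was started in each of 3 rounds over the same afternoon and evening, in the order chow, fasted, HFD. An HFD cage therefore began between 15 and 19 min after the fasted cage of its round. By the light cycle that the authors give, the cages of round 3 and the HFD cage of round 2 began in the dark. Diet was given to a cage and not to a mouse, so the treatment was applied 3 times per group, and the p-values below measure the spread among mice. A further study of 24 h, with 9 chow and 10 fasted mice that lived singly, shares no animal with these 12 and is used for values in other fasted mice.

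Food deprivation and a fat-rich diet change the supply of fuel to the brain from opposite sides. Without food, the liver makes glucose and ketone bodies, insulin and leptin fall, corticosterone rises and body temperature drops, and peptide neurons of the hypothalamus adjust hunger. Proteins bound for membranes or secretion are folded in the endoplasmic reticulum (ER) by chaperones and disulfide isomerases, and the amount of these enzymes follows the protein load through the unfolded protein response. Heat shock proteins do the same work in the cytosol and follow temperature, and a small set of RNA-binding proteins is instead made when the temperature falls.

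Libraries were made from rRNA-depleted RNA of 5 areas: prefrontal cortex, hippocampus, hypothalamus and both colliculi (superior and inferior). The hypothalamus was taken whole and the other areas from the left side in 3 and the right side in 3 mice of each diet. Columns of the count table could be tied to mice but not to these areas, so every value is a whole-mouse sum over 5 areas, in which a deeper library weighs more. Sums ran from 69815710 to 148051027 counts in fasted and from 77042603 to 97829735 counts in HFD mice. Fasted mice 10, 11 and 12 each had 1 library labelled as failing the alignment step (superior colliculus, hippocampus and hypothalamus), as did chow mouse 4, and no HFD mouse had one. The authors also labelled libraries that lay far from their area in a principal component analysis. Fasted mice 9 and 12, HFD mice 13, 16 and 18 and chow mice 1, 5 and 6 each had 1 of these. A failed library below means a failed alignment. Levels are counts of a gene per 1000000 counts of a mouse, scaled by TMM factors (CPM), and a fold change is the log2 difference from edgeR's quasi-likelihood fit of all 18 mice of the 16 h study with diet and round. In these bulk samples, fewer cells of a type and less RNA per cell cannot be told apart.

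Fasted mice lost weight and HFD mice kept theirs. The change in body weight of fasted mice was -2.51, -1.30, -2.49, -2.03, -7.52 and -6.49% of the start weight (mice 7 to 12), with a mean of -3.72% ± 2.6 (SD, n = 6). In HFD mice it was 1.45, 1.53, -0.755, 0.413, 0 and -0.784% (mice 13 to 18), with a mean of 0.310% ± 1.02 (SD, n = 6). Every fasted mouse lay below every HFD mouse, and the difference of -4.03 percentage points had p = 0.00216, the smallest p that a two-sided exact permutation test allows for 6 against 6. With the 3 cage means of each group as the unit, the exact permutation p was 0.100, again the smallest possible. The losses were largest in round 3, where both fasted mice lost over 6%. HFD cages ate between 13.6 and 15.8 kcal per mouse, a value that the mice of a cage share, against 0 in fasted cages and between 11.6 and 13.2 kcal on chow. Fasted mice weighed 24.2 ± 1.30 g at the start and HFD mice 26.0 ± 1.10 g (SD, n = 6 each).

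**Figure D1:**
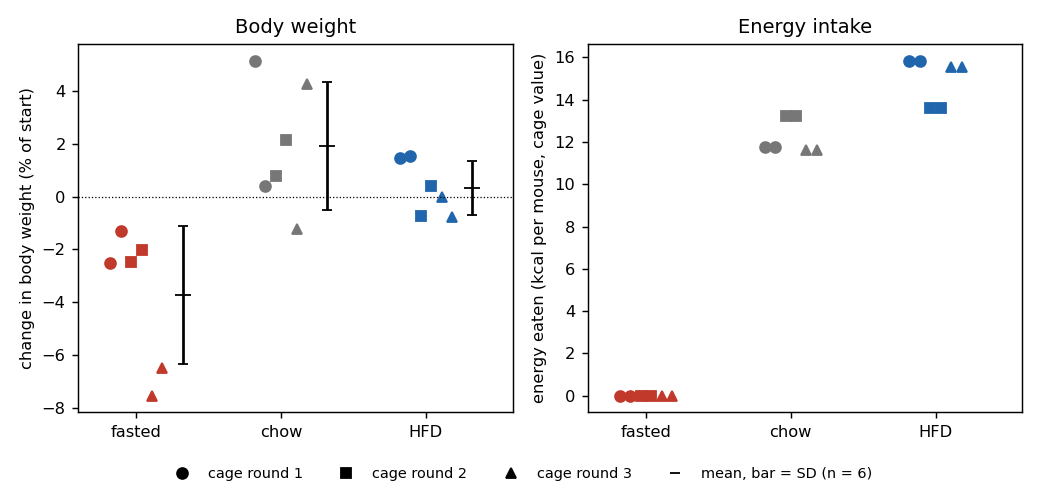
Change in body weight in percent of the start weight (left) and energy eaten in kcal per mouse (right) for the fasted, chow and HFD mice of the 16 h study. Each point is a mouse, the marker gives its round, black bars are the mean and SD of 6 mice, and mice of a cage share 1 energy value. All 6 fasted mice lie below all 6 HFD mice in weight change, and the lowest pair, at -7.52 and -6.49%, belongs to round 3.

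Of 29746 genes tested, 89 passed an adjusted p under 0.05 between fasted and HFD mice (0.299% of the genes; edgeR with Benjamini-Hochberg adjustment), 51 higher (0.171%) and 38 lower in fasted mice (0.128%). Among the genes lower in fasted mice were 5 of the 13 ER chaperones on a list of them, with Sdf2l1 at 0.591 of its HFD level. Among the genes higher in fasted mice were Cirbp, an RNA-binding protein made in the cold (1.48 times its HFD level), Hif3a, a hypoxia-inducible factor subunit that glucocorticoids raise (2.05 times), and Prodh, which begins the breakdown of proline (1.24 times). Most differences were modest: the median called gene was 1.49 times higher or 1.22 times lower in fasted than in HFD mice, with extremes of 3.02 and 2.29 times. All 89 had the same sign in each of the 3 rounds, and in 78 the CPM of the 6 fasted and the 6 HFD mice did not overlap, against 391 genes in all without overlap (1.31% of those tested). Calling genes from these same mice favours both traits, so neither is separate support for the calls.

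Chow mice mostly lay in between. In 49 of the 51 genes higher in fasted mice and in all 38 lower ones, the estimate for chow lay between fasted and HFD, an order that picking genes by the difference of the outer groups favours. Neither outer group differed from chow by a called gene: 0 genes passed between fasted and chow (2238 at an unadjusted p under 0.05, 7.52% of genes, lowest adjusted p 0.115) and 0 between HFD and chow (2883, 9.69%, lowest adjusted p 0.510, edgeR), and both of these share the chow mice.

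The 89 calls sat close to the threshold, with adjusted p between 0.0261 and 0.04995 (edgeR). Fitted on the 12 fasted and HFD mice alone, with the round, edgeR called 4 genes, 3 higher and 1 lower, all 4 among the 89, and 2966 at an unadjusted p under 0.05. With counts added up per cage, 3 cages against 3, edgeR called 0 genes (lowest adjusted p 0.0706, 3004 at an unadjusted p under 0.05). It called 0 without fasted mouse 10, 11 or 12 or HFD mouse 17, and 0 without cage 38, 39 or 42, with between 1951 and 3814 genes at an unadjusted p under 0.05 in these 7 fits. Of the 810 values that 30 alternatives gave for the 27 called genes picked for naming by a fixed rule, 343 passed the test. All kept their direction, but the genes were picked for their difference in these same mice, which favours a kept direction.

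Of the 28 gene lists, the ER chaperones had the most called members: 13 of 13 had lower estimates in fasted than in HFD mice, 5 of them called (Sdf2l1, Calr, Pdia4, Creld2 and Pdia6) and 12 at an unadjusted p under 0.05, where 5.23% of all genes were lower at that p. Their median fold change was -0.30 on the log2 scale, against 0.00 over all genes tested. The lists were chosen with earlier results of these data known, so this rank and these counts are no separate support. Added over the list, the level of the ER chaperones was 1405, 1416, 1364, 1342, 1414 and 1200 CPM in fasted mice 7 to 12 and 1492, 1617, 1675, 1709, 1436 and 1649 CPM in HFD mice 13 to 18. All fasted mice were below all HFD mice. Chow mice ran from 1221 to 1669 CPM and spanned both groups, and the lowest pair, at 1328 and 1221 CPM, was the chow cage of round 3. In rounds 1, 2 and 3, the mean of the fasted cage was below that of the HFD cage in 12, 13 and 12 of the 13 genes.

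Sdf2l1, a partner of the chaperone BiP in the ER (chromosome 16, 16948002-16950252, GRCm39, as are the positions below), showed the steepest difference of the list. Its CPM was 3.69, 4.42 and 5.54 in fasted mice (lowest, median and highest) and 6.43, 7.62 and 8.66 in HFD mice. The groups did not overlap, and the fold change was -0.76 ± 0.13 (SE, adjusted p = 0.0295, edgeR). By round it was -0.59, -0.83 and -0.84, and chow mice ran from 3.64 to 8.49 CPM. Calr encodes calreticulin, a calcium-binding chaperone for glycoproteins, with 167, 182 and 196 CPM in fasted and 204, 238 and 253 CPM in HFD mice. It was lower in every fasted mouse, with a fold change of -0.37 ± 0.06 (SE, adjusted p = 0.0291, edgeR). The disulfide isomerase Pdia4 had 28.5, 34.9 and 37.3 CPM in fasted and 41.2, 45.8 and 48.2 CPM in HFD mice, without overlap, and a fold change of -0.41 ± 0.08 (SE, adjusted p = 0.0355, edgeR). A second isomerase, Pdia6, had 46.7, 58.8 and 63.5 CPM in fasted and 67.2, 76.0 and 84.2 CPM in HFD mice and a fold change of -0.40 ± 0.08 (SE, adjusted p = 0.0479, edgeR). Fasted mouse 12, at 46.7 CPM, was far below the other fasted mice for Pdia6. Creld2, which is induced by ER stress, differed by -0.34 ± 0.06 (SE, adjusted p = 0.0415, edgeR), from 6.94 to 8.38 CPM in fasted to 9.22 to 10.4 CPM in HFD mice.

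Hspa5, the gene of BiP itself, just missed the threshold. Its level was 186, 181, 171, 154, 166 and 128 CPM in fasted mice 7 to 12 and 212, 240.4, 232, 250.5, 193 and 233 CPM in HFD mice 13 to 18, without overlap, with a fold change of -0.47 ± 0.10 (SE, adjusted p = 0.0542, edgeR). Manf, a secreted ER stress protein (-0.30 ± 0.06 SE, adjusted p = 0.0565, edgeR), and Hsp90b1, the ER form of HSP90 (-0.26 ± 0.06 SE, adjusted p = 0.0623, edgeR), were also below HFD in their estimates. Canx, calnexin, stood apart from its list with -0.03 ± 0.06 (SE; adjusted p = 0.882, edgeR).

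Further called genes of the secretory pathway were Xbp1, a transcription factor of the unfolded protein response, and Lman2, a lectin that carries glycoproteins out of the ER, both singled out after their values had been seen, and P4ha1, a subunit of the ER enzyme that hydroxylates collagen. Xbp1 had 45.9, 52.0 and 57.7 CPM in fasted and 61.9, 64.8 and 69.3 CPM in HFD mice, without overlap (-0.32 ± 0.05 SE, adjusted p = 0.0295, edgeR). It shares its locus with Ccdc117 on the other strand. Lman2 ran from 69.0 to 75.7 CPM in fasted and from 80.3 to 86.4 CPM in HFD mice (-0.19 ± 0.04 SE, adjusted p = 0.0416, edgeR). P4ha1 had 30.4, 35.9 and 39.1 CPM in fasted and 45.0, 47.5 and 54.9 CPM in HFD mice and a fold change of -0.46 ± 0.07 (SE, adjusted p = 0.0261, edgeR).

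**Figure D2:**
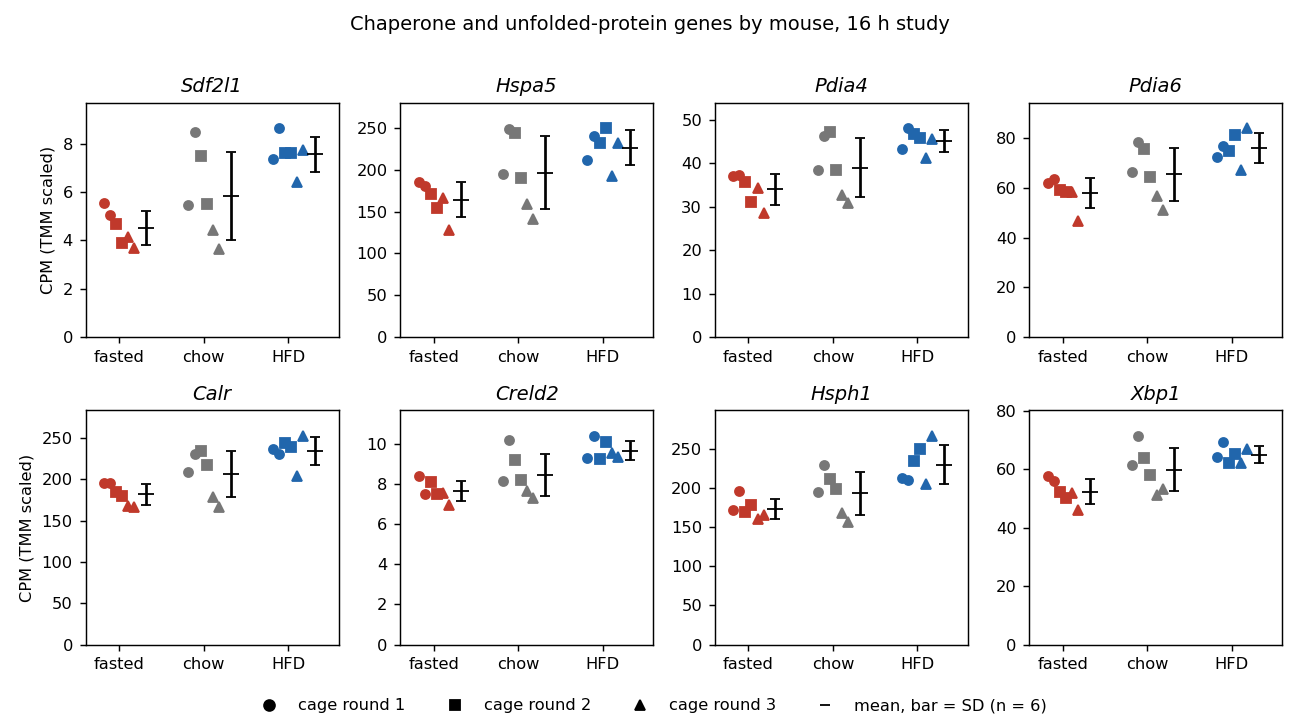
CPM of 7 ER and unfolded-protein genes and of the cytosolic chaperone Hsph1 in each fasted, chow and HFD mouse of the 16 h study, with the mean and SD of 6 mice as black bars and the round as the marker. In each panel the fasted mice lie below the HFD mice without overlap, and the chow mice of round 3 lie at or near the level of the fasted mice.

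Promoters of these genes are known to carry the ER stress response element, a CCAAT box and a CCACG box at a fixed distance, which NF-Y and ATF6 bind. The 250 bases before the start of transcription are shown for Hspa5 and for the 3 called genes whose promoter holds the full element. The search fixed the spacing and the genes were picked for their counts, so neither shared trait is a result. Sequences are from RefSeq, build GRCm38.p6, 5′ to 3′ on the strand of the gene, and capitals mark the match, which is CCAAT, then any 9 bases, then CCACG, searched on both strands. Hspa5 is at chr2:34771840-34772089, forward strand, Calr at chr8:84846932-84847181, reverse strand, Pdia6 at chr12:17266339-17266588, forward strand and Creld2 at chr15:88819396-88819645, forward strand.
Hspa5: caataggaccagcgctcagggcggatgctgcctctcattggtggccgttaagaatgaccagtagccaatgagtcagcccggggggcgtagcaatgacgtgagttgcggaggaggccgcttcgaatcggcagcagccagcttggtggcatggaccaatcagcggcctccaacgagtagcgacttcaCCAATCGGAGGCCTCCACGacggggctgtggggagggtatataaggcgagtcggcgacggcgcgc
Calr: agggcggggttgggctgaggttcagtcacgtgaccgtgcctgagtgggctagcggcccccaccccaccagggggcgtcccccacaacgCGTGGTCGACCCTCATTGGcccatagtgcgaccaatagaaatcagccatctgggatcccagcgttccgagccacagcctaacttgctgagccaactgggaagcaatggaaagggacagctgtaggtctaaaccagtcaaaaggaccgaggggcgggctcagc
Pdia6: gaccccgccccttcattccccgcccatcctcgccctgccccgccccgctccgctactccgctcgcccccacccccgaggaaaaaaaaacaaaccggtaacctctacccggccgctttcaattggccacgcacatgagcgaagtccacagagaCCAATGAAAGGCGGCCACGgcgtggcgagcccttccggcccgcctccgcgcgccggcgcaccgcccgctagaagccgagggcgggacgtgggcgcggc
Creld2: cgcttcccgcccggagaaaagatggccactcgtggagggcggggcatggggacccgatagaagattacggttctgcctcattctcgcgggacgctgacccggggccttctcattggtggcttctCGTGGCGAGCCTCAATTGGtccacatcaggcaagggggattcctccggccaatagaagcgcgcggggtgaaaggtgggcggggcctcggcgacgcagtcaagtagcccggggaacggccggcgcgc
The element begins 65 bases before the start in Hspa5, 162 in Calr, 98 in Pdia6 and 126 in Creld2, and in Calr and Creld2 it lies on the opposite strand. Of the 13 ER chaperones, 11 matched a promoter in the table (Manf and Hyou1 did not), and 7 of these 11 held the element in the window from 250 bases before to 50 bases after the start (Calr, Canx, Creld2, Dnajc3, Hsp90b1, Hspa5 and Pdia6). Of all 32851 promoters of that length, 39 held it (0.119%). Among called genes with a promoter in the table it was found in 0 of 31 that were higher and in 3 of 31 that were lower in fasted mice. The called Sdf2l1 and Pdia4 had a promoter in the table that did not hold the element. Canx and Dnajc3 hold the element and had the smallest differences of the list, -0.03 and -0.12 on the log2 scale. A match describes the letters only, and binding was not measured.

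Cytosolic and mitochondrial heat shock proteins mostly had lower estimates in fasted mice too. Of 14, 13 had a negative fold change, 10 of them at an unadjusted p under 0.05 and 1 called, with a median of -0.16 on the log2 scale. Of all genes tested, 5.23% were lower at that p. The summed level of the list ran from 2338 to 2445 CPM in fasted and from 2472 to 2852 CPM in HFD mice, and the groups did not overlap. Chow mice ran from 2220 to 2689 CPM and spanned both groups, with the chow cage of round 3, at 2284 and 2220 CPM, below every fasted mouse. The called member was Hsph1, the HSP110 that recharges HSP70, with 160.5, 171 and 197 CPM in fasted and 205, 224 and 268 CPM in HFD mice and a fold change of -0.41 ± 0.08 (SE, adjusted p = 0.0466, edgeR). Hspa8, the constitutive HSP70, had 530.0, 558 and 577 CPM in fasted and 589, 658 and 706 CPM in HFD mice, without overlap, but an adjusted p of 0.0933 (edgeR; fold change -0.22). The stress-inducible Hspa1b (-0.60; adjusted p = 0.237) and Hspb1 (-0.67; adjusted p = 0.102) had larger estimates with a wider spread (edgeR). Chordc1, a co-chaperone of HSP90 named after its values had been seen, was called at -0.29 ± 0.05 (SE, adjusted p = 0.0304, edgeR), from 70.1 to 84.4 CPM in fasted to 95.0 to 102 CPM in HFD mice. A heat shock element of GAA, TTC and GAA with any 2 bases between each was searched on both strands of the promoter windows. Of the list, 10 genes had a promoter in the table, and 3 held the element (Hsph1, Hspd1 and Hspe1). Among called genes with a promoter it was in 2 of 31 lower (Hsph1 and Chordc1) and 0 of 31 higher ones, and in 0.603% of all promoters.

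Cirbp moved the other way. Cirbp (chromosome 10, 79997069-80008626) encodes the cold-inducible RNA-binding protein, whose RNA rises when body temperature falls. Its level was 56.9, 53.0, 62.4, 55.5, 72.4 and 63.7 CPM in fasted mice 7 to 12 and 38.0, 42.4, 46.4, 44.7, 41.9 and 31.8 CPM in HFD mice 13 to 18. All fasted mice were above all HFD mice, and the fold change was 0.56 ± 0.09 (SE, adjusted p = 0.0291, edgeR), with 0.45, 0.37 and 0.89 in rounds 1 to 3. Chow mice lay from 42.0 to 56.8 CPM, and the estimates against them were 0.28 in fasted and -0.28 in HFD mice, which did not pass the test. Rbm3, a second cold-inducible RNA-binding protein looked up after Cirbp had been seen, had a mean of 37.4 CPM in fasted and 32.2 CPM in HFD mice and was not called (fold change 0.21, adjusted p = 0.287, edgeR). Body temperature was not among the measurements used here.

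Glucocorticoid-responsive genes, a list of transcripts that corticosterone is known to raise, had 1 called member of 20. Hif3a (chromosome 7, 16764918-16796352) had 10.6, 6.92, 9.19, 14.5, 24.5 and 19.7 CPM in fasted mice 7 to 12 and 6.84, 6.33, 6.24, 6.14, 7.04 and 6.42 CPM in HFD mice 13 to 18. HFD mice formed a tight group, fasted mouse 8 lay inside it, and the pair of round 3 lay highest, with a fold change of 1.04 ± 0.19 (SE, adjusted p = 0.0316, edgeR). By round, the difference was 0.38, 0.90 and 1.70 on the log2 scale. Of the list, 9 members were higher at an unadjusted p under 0.05 (6.25% of all genes were) and 0 lower, and the median was 0.15. By round the median was -0.03, 0.22 and 0.31, and 11, 4 and 2 of the 20 were lower in the fasted cage. Without the 4 mice that have a failed library, 3 of them fasted, 2 members were higher and 1 lower at that p, with a median of 0.08. Classical members such as Fkbp5 (-0.01; adjusted p = 0.990), Zbtb16 (-0.11; adjusted p = 0.777) and Cdkn1a (0.07; adjusted p = 0.921) did not pass (edgeR). The glucocorticoid receptor Nr3c1 had 117, 133 and 153 CPM in fasted and 129, 138 and 153 CPM in HFD mice, which overlap (-0.07; adjusted p = 0.648, edgeR).

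Klf15, a transcription factor of fasting metabolism that glucocorticoids also raise, was called at 0.23 ± 0.04 (SE, adjusted p = 0.0422, edgeR) and was named after its values had been seen. It ran from 23.7 to 32.6 CPM in fasted and 21.7 to 24.5 CPM in HFD mice, with some overlap. Prodh, proline dehydrogenase of the mitochondrion (chromosome 16, 17877575-17908067), had 33.5, 39.1 and 45.0 CPM in fasted and 30.1, 31.8 and 33.3 CPM in HFD mice, without overlap, and a fold change of 0.31 ± 0.05 (SE, adjusted p = 0.0315, edgeR). Its rounds gave 0.11, 0.33 and 0.47, and those of Klf15 0.09, 0.24 and 0.36, so both differences were largest in round 3, the round of the largest weight loss. Round 3 was also the last to start, and both its fasted mice had a failed library. Its areas other than the hypothalamus came from the right side, and those of round 1 from the left. These traits cannot be told apart here, and whether the difference changes with the round was not tested. Against chow, Hif3a differed by 0.92 in fasted and -0.12 in HFD mice, and Prodh by 0.34 and 0.03, estimates that share the chow mice and did not pass the test. Chow mice ran from 5.54 to 9.46 CPM for Hif3a and from 28.9 to 33.8 CPM for Prodh. Prodh lies opposite to Dgcr6, whose reads cannot be told apart from its own where the genes overlap if counting ignored strand, a setting not given in the sources used here.

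The 2 called genes of the barrier endothelium list differed in opposite directions. Slco1a4, an organic anion transporter of the blood-brain barrier, had 68.1, 78.8 and 90.0 CPM in fasted and 61.3, 63.3 and 66.3 CPM in HFD mice, without overlap, and was higher in fasted mice by 0.29 ± 0.05 (SE, adjusted p = 0.0295, edgeR). Kdr, the main receptor for VEGF on endothelium, was lower at -0.33 ± 0.06 (SE, adjusted p = 0.0315, edgeR), with 22.9, 22.3, 18.7, 17.5, 15.9 and 16.6 CPM in fasted and 24.5, 24.9, 22.8, 23.8, 21.8 and 23.8 CPM in HFD mice. Only the fasted mice of round 1, mice 7 and 8, reached into the HFD range. Of the 17 barrier genes tested, these were the 2 called, while 8 were higher and 2 lower at an unadjusted p under 0.05 (edgeR), against 6.25% and 5.23% of all genes. The median of the list was 0.04 on the log2 scale. Its sum ran from 760 to 906 CPM in fasted and from 762 to 801 CPM in HFD mice, with overlap. Of the members that were not called, the pan-endothelial markers Cldn5, Pecam1 and Cdh5 had 0.02, 0.04 and -0.08 (adjusted p = 0.902, 0.762 and 0.788, edgeR). These do not stand for the whole list.

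Several other named genes were lower in fasted mice. Fgfrl1, an FGF receptor without a kinase domain, had 11.4, 13.7 and 15.6 CPM in fasted and 16.7, 17.3 and 18.0 CPM in HFD mice and a fold change of -0.35 ± 0.05 (SE, adjusted p = 0.0261, edgeR). Dok3, an adaptor of immune cell signalling, fell to 0.607 of its HFD level, from 8.87 to 15.3 CPM in HFD to 5.17 to 7.79 CPM in fasted mice (-0.72 ± 0.14 SE, adjusted p = 0.0422, edgeR). Mkks, a chaperonin-like protein of the Bardet-Biedl complex, had 6.68 to 9.32 CPM in fasted and 10.6 to 14.7 CPM in HFD mice (-0.58 ± 0.10 SE, adjusted p = 0.0295, edgeR). Cpsf4l, a relative of an mRNA 3′ end processing factor (-0.44 ± 0.07 SE, adjusted p = 0.0295, edgeR), and the ferlin Fer1l5 (-0.36 ± 0.07 SE, adjusted p = 0.0343, edgeR) also did not overlap between the groups. Smaller called differences, singled out after the values had been seen, were in Pex6, an ATPase of peroxisomal import (-0.26; adjusted p = 0.0261), the mitochondrial disaggregase Clpb (-0.17; adjusted p = 0.0479), the nuclear export receptor Xpo1 (-0.19; adjusted p = 0.0499) and the stress granule protein Caprin1 (-0.15; adjusted p = 0.0499, all edgeR).

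**Figure D3:**
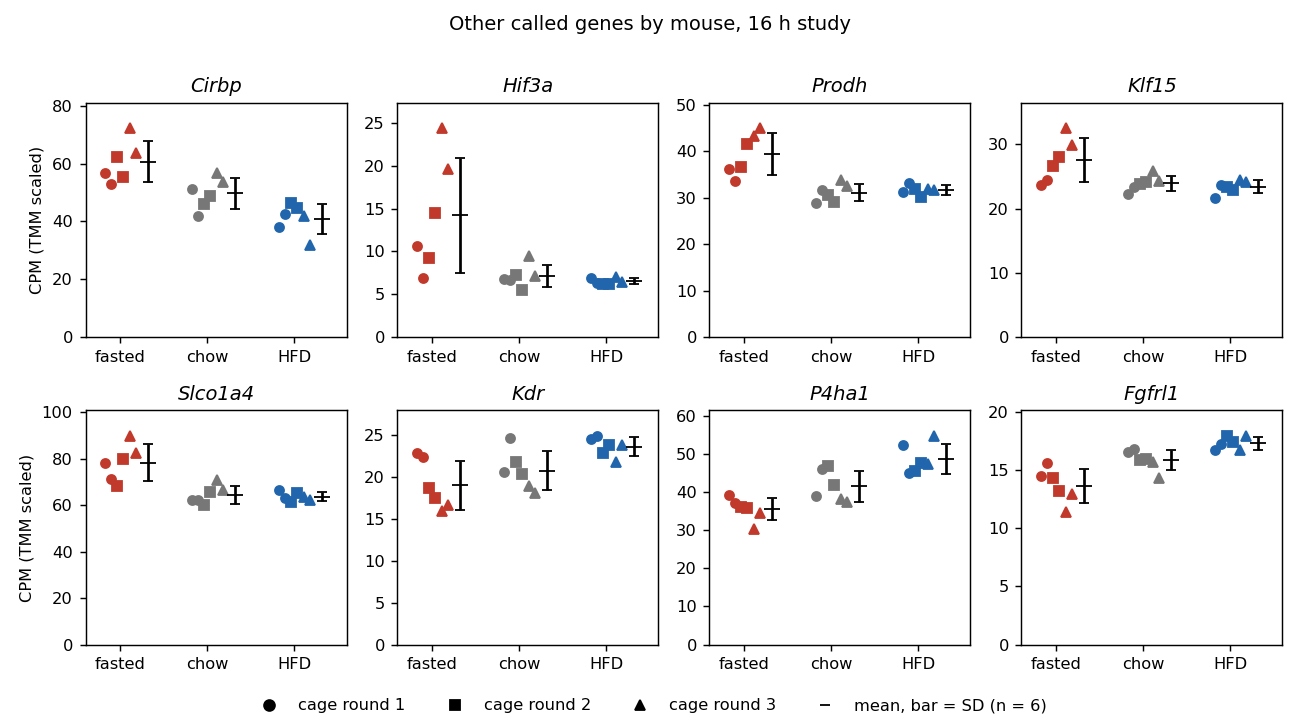
CPM of 8 further called genes in each fasted, chow and HFD mouse of the 16 h study, with the mean and SD of 6 mice as black bars and the round as the marker. Cirbp, Prodh and Slco1a4 lie higher and P4ha1 and Fgfrl1 lower in every fasted than in every HFD mouse, and Hif3a and Klf15 are highest in the fasted mice of round 3.

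Other genes higher in fasted mice had varied roles. Pla2g4e, a phospholipase A2 family member that makes N-acyl phospholipids, had 15.1, 16.2 and 17.3 CPM in fasted and 8.32, 10.8 and 11.8 CPM in HFD mice, without overlap, and a fold change of 0.60 ± 0.11 (SE, adjusted p = 0.0416, edgeR). Cyp4f18, a hydroxylase of fatty acids and leukotrienes, differed by 0.43 ± 0.08 (SE, adjusted p = 0.0416, edgeR), from 2.03 to 2.37 CPM in HFD to 2.50 to 3.45 CPM in fasted mice. The peroxisomal membrane channel Pxmp2 (0.39 ± 0.07 SE, adjusted p = 0.0416, edgeR) and, named after its values had been seen, the peroxisomal acyl-CoA oxidase Acox3 (0.22 ± 0.04 SE, adjusted p = 0.0499, edgeR) were called as well. Uvssa, a factor of transcription-coupled DNA repair, had 33.9, 34.9 and 37.9 CPM in fasted and 24.0, 28.8 and 30.4 CPM in HFD mice, without overlap (0.33 ± 0.05 SE, adjusted p = 0.0261, edgeR). The mitochondrial import subunit Timm44 (0.16; adjusted p = 0.0484, edgeR), singled out afterwards, differed by little and without overlap.

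Further genes higher in fasted mice had low levels. Acr, the sperm protease acrosin, had 3.65, 3.84 and 4.50 CPM in fasted and 2.04, 2.51 and 2.91 CPM in HFD mice (0.65 ± 0.11 SE, adjusted p = 0.0295, edgeR). Tsbp1, a testis-expressed basic protein, had 3.73, 4.06 and 4.44 CPM in fasted and 2.24, 2.85 and 3.18 CPM in HFD mice (0.57 ± 0.11 SE, adjusted p = 0.0422, edgeR). Dcst2, a sperm membrane protein, ran from 0.720 to 0.976 CPM in HFD and 1.03 to 1.51 CPM in fasted mice (0.57 ± 0.11 SE, adjusted p = 0.0343, edgeR). None of these 3 overlapped between the groups. Oacyl (0.46 ± 0.08 SE, adjusted p = 0.0316, edgeR) and Armcx5 (0.34 ± 0.06 SE, adjusted p = 0.0295, edgeR), picked by the same rule, have no role given here. Parpbp, a partner of PARP1, was called at 0.60 ± 0.11 (SE, adjusted p = 0.0343, edgeR) and overlaps Pmch on the other strand, a peptide gene whose own level in fasted and HFD mice ran from 3.92 to 17.9 and 0.173 to 20.6 CPM. Of the 51 genes higher in fasted mice, 23 have only predicted or clone names, against 2 of the 38 lower ones, and 17 of the 18 called genes with a mean log2 CPM under 0 were higher. In all, 48 of the 89 called genes overlap an annotated gene on the other strand. The shares of such names, levels and overlaps among all genes tested were not worked out, so these counts mark no trait of the called genes.

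Energy metabolism lists had 0 called genes. Among 22 genes of fatty acid oxidation and ketone bodies, 5 were higher and 1 lower at an unadjusted p under 0.05, with a median of 0.05 (edgeR). Of all genes, 6.25% were higher and 5.23% lower at that p. Plin4, a lipid droplet coat protein that the glucocorticoid list also holds, came closest (0.71 ± 0.15 SE, adjusted p = 0.0580, edgeR), with 13.7, 12.1, 15.6, 19.4, 36.3 and 25.4 CPM in fasted mice 7 to 12 and 12.2, 12.4, 10.4, 10.3, 13.2 and 13.0 CPM in HFD mice 13 to 18. Of the fasted mice, mouse 8 lay within the HFD range, and the round differences were 0.07, 0.75 and 1.21. Pnpla2, the triglyceride lipase ATGL, had 0.27 (adjusted p = 0.242, edgeR). Of 18 sterol synthesis genes 0 were called, and 3 were higher and 0 lower at an unadjusted p under 0.05 (edgeR). The lowest p were those of Lss (0.20, adjusted p = 0.161) and Insig1 (0.25, adjusted p = 0.167, edgeR). Fatty acid synthesis (10 genes), insulin signalling and FoxO (15), brakes of mTORC1 (11) and the integrated stress response (16) had 0 called each, with medians from -0.07 to 0.04 on the log2 scale. In that order, 0, 1, 1 and 1 were higher and 1, 3, 0 and 3 lower at an unadjusted p under 0.05 (edgeR). Txnip, which is raised by glucose and by FoxO, had the lowest p of the insulin list with 13.5, 15.8 and 17.8 CPM in fasted and 11.1, 12.1 and 15.0 CPM in HFD mice (0.35 ± 0.08 SE, adjusted p = 0.0820, edgeR). Atf4 had -0.14 (adjusted p = 0.153), Akt2 -0.27 (adjusted p = 0.169) and Elovl6 -0.14 (adjusted p = 0.293, edgeR).

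**Figure D4:**
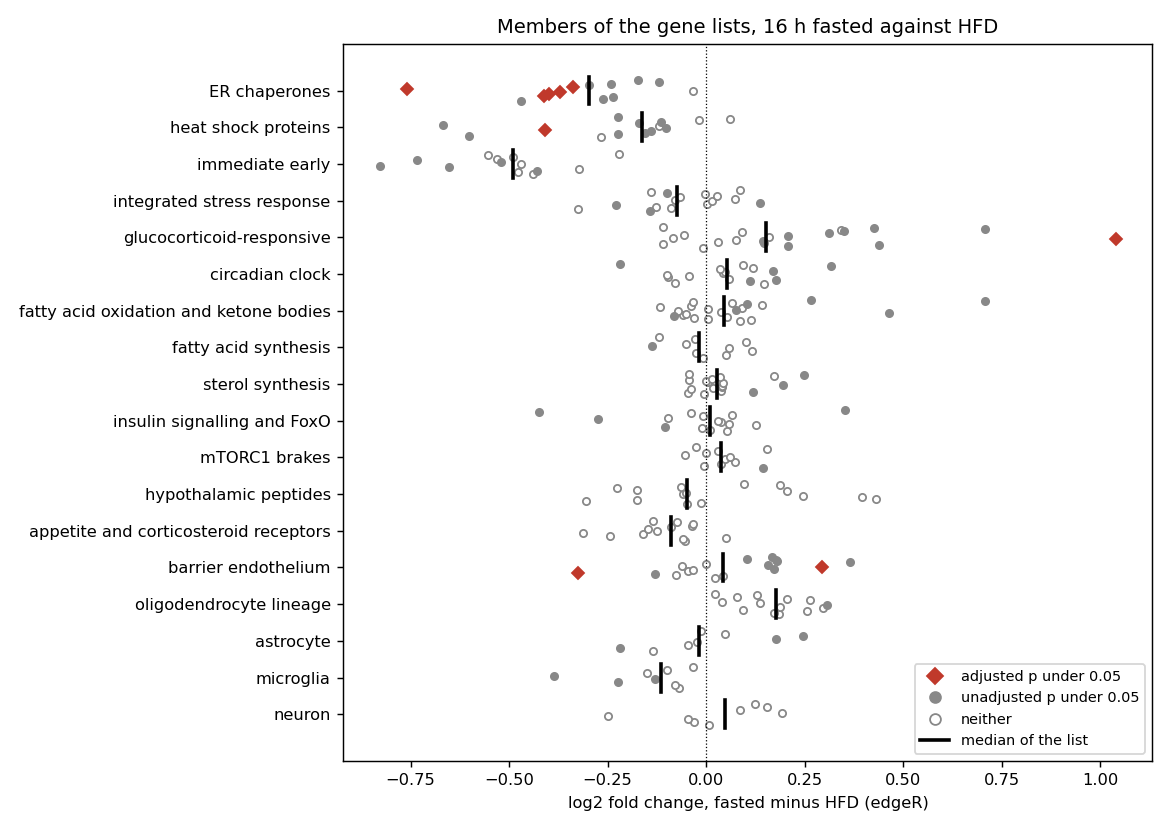
Log2 fold change, fasted minus HFD, of each member of 18 gene lists, with called genes as diamonds, genes at an unadjusted p under 0.05 as filled circles and the median of a list as a black line. All 13 ER chaperones lie left of 0 with a median of -0.30, and of the 20 glucocorticoid-responsive genes 15 lie to the right.

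Appetite genes known from the hypothalamus gave no called difference in these sums over 5 areas, which do not read the hypothalamus alone. Single mice of a diet differed many-fold. Hcrt, the orexin precursor, had 20.2, 15.4, 15.9, 26.8, 42.5 and 5.39 CPM in fasted mice 7 to 12 and 0.346, 22.2, 14.3, 33.6, 16.0 and 10.5 CPM in HFD mice 13 to 18. Pmch had 10.5, 13.6, 9.28, 17.9, 16.8 and 3.92 and 0.173, 10.1, 8.91, 20.6, 9.14 and 8.04 CPM in the same order. HFD mouse 13 was close to 0 for both, and fasted mouse 12, whose hypothalamus library failed, was lowest of its group. Agrp, the hunger peptide of the arcuate nucleus, had 1.72, 3.06 and 4.74 CPM in fasted and 1.88, 3.38 and 4.29 CPM in HFD mice (-0.05; adjusted p = 0.965, edgeR). Npy had 7.89, 11.4 and 15.0 CPM and 8.92, 11.4 and 14.8 CPM (-0.01; adjusted p = 0.985), and the satiety precursors Pomc and Cartpt had fold changes of -0.30 and -0.18 (adjusted p = 0.870 and 0.914, edgeR). Mc4r, the receptor for the peptides made from Agrp and Pomc, had 1.52, 2.32 and 2.94 CPM and 2.31, 2.63 and 3.24 CPM, with wide overlap (-0.24; adjusted p = 0.694, edgeR). Of 15 peptides and 13 receptors, 0 were called and 0 had an unadjusted p under 0.05 in either direction.

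Markers of brain areas varied widely among mice of the same diet. The 8 hypothalamic markers summed to between 119 and 439 CPM in fasted and between 52.5 and 404 CPM in HFD mice, with the lowest value in HFD mouse 13. In each of the hippocampus, cortex, tectum, striatum, cerebellum, choroid plexus, pituitary and meninges lists, 0 genes were called. With the first 2 principal components of the area markers as covariates, 105 genes were called, 67 of them among the 89, and 7 of the ER chaperones. Without HFD mouse 13, 53 genes were called, with 6 of the ER chaperones (edgeR).

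Among other cell types, all 8 microglia markers had negative fold changes (median -0.11, 0 called, 3 at an unadjusted p under 0.05), led by Aif1 at -0.39 (adjusted p = 0.260, edgeR). Their sum ran from 178 to 224 CPM in fasted and 208 to 230.1 CPM in HFD mice. Of all genes tested, 14723 had negative and 15023 positive estimates, and 5.23% were lower and 6.25% higher at an unadjusted p under 0.05. All 14 genes of the oligodendrocyte lineage had positive fold changes (median 0.18, 0 called, 1 at an unadjusted p under 0.05), with sums from 2966 to 4903 CPM and 2821 to 4571 CPM. This direction did not hold in round 1, where 10 of the 14 were lower in the fasted cage, nor without the 4 mice that have a failed library, where 7 were higher and 7 lower (median 0.01). Without fasted mouse 8, 9 were higher at an unadjusted p under 0.05 (median 0.27). Astrocyte and neuron markers had medians of -0.02 and 0.05 with 0 called each. Blood markers had 5 of 5 lower estimates in fasted mice, 4 of them at an unadjusted p under 0.05 and 0 called. Their sum was 87.0, 102, 103, 93.7, 70.8 and 126 CPM in fasted mice 7 to 12 and 172, 144, 123, 127, 102 and 109 CPM in HFD mice 13 to 18, with overlap. The part of blood in the differences of other genes was not tested.

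All 13 immediate early genes, which neurons switch on within minutes of firing, had lower estimates in fasted mice, with a median of -0.49, 5 at an unadjusted p under 0.05 and 0 called. Of all genes tested, 5.23% were lower and 6.25% higher at that p, and 14723 had negative and 15023 positive estimates. Egr1 led, from 35.3 to 78.5 CPM in fasted and from 61.5 to 112 CPM in HFD mice (-0.65 ± 0.20 SE, adjusted p = 0.184, edgeR). The summed level of the list was 171 to 431 CPM in fasted and 306 to 605 CPM in HFD mice, so the groups overlapped. Kill order moved with this sum: the mouse of a cage that was killed second had the higher sum in 9 of 9 cages, with 217 and 399 CPM in fasted mice 9 and 10 and 366 and 605 CPM in HFD mice 17 and 18 as examples, and HFD mice of a round were killed after its fasted mice. The part of kill order in the difference between the diets was not tested. Of 16 clock genes 0 were called, 11 had higher and 5 lower estimates in fasted mice, and 4 and 1 of these were at an unadjusted p under 0.05 (edgeR). The lowest p were those of Ciart (0.32; adjusted p = 0.102) and Nfil3 (-0.22; adjusted p = 0.208, edgeR). With the clock time of death in place of the round, 142 genes were called, 86 of them among the 89.

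The 24 h study gave each of these genes a value in other fasted mice, 10 of them against 9 on chow. These mice lived singly, gave tissue of the left hemisphere except for the whole hypothalamus, were sequenced in other runs, had zona incerta in place of prefrontal cortex and lost 19.5% ± 1.33 (SD, n = 10) of their weight. Of these 19 mice, 17 had 1 or 2 libraries labelled as failing the alignment step, and 23 of their 95 columns were low in counts or genes, so their sums weigh the areas unevenly. All 89 genes were tested there. Of the 51 higher in fasted mice at 16 h, 25 were called higher at 24 h and 0 lower. Of the 38 lower, 21 were called lower and 0 higher. Among all 28523 genes tested in both, 5.73% were called higher and 5.70% lower at 24 h, and 86 of the 89 had the same sign in both. The reference differs, HFD at 16 h and chow at 24 h, so the sizes are set side by side and not compared.

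At 24 h, Sdf2l1 had a fold change of -0.54 ± 0.08 (SE, adjusted p = 5.86e-05), Calr of -0.27 ± 0.05 (SE, adjusted p = 0.00243) and Pdia4 of -0.34 ± 0.06 (SE, adjusted p = 0.000630) (edgeR). Of the 13 ER chaperones, 6 were called lower at 24 h and 0 higher, while Hspa5 had -0.19 ± 0.07 (SE, adjusted p = 0.104). Cirbp was higher by 0.47 ± 0.07 (SE, adjusted p = 0.000138) and Rbm3 by 0.51 (adjusted p = 1.26e-05, edgeR). Heat shock proteins gave 1 called lower of 14 at 24 h, and Hsph1 had -0.17 ± 0.07 (SE, adjusted p = 0.153). Hif3a rose by 2.31 ± 0.22 (SE, adjusted p = 6.95e-07), Klf15 by 1.10 ± 0.08 (SE, adjusted p = 4.32e-08) and Prodh by 0.77 ± 0.07 (SE, adjusted p = 7.78e-07) (edgeR). All 20 glucocorticoid-responsive genes were called higher at 24 h, the members that did not pass at 16 h included, with Fkbp5 at 1.81 ± 0.18 (SE, adjusted p = 1.1e-06) (edgeR). Plin4 had 3.27 ± 0.24 (SE, adjusted p = 2.37e-08) there. Kdr had -0.73 ± 0.11 (SE, adjusted p = 9.78e-05) and Fgfrl1 -0.71 ± 0.07 (SE, adjusted p = 7.4e-07), whereas P4ha1 had -0.19 ± 0.09 (SE, adjusted p = 0.223) and Slco1a4 0.18 ± 0.08 (SE, adjusted p = 0.190) (edgeR). The immediate early genes had 2 of 13 called higher at 24 h, the opposite sign to their estimates at 16 h, and this difference between the studies was not tested.

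**Figure D5:**
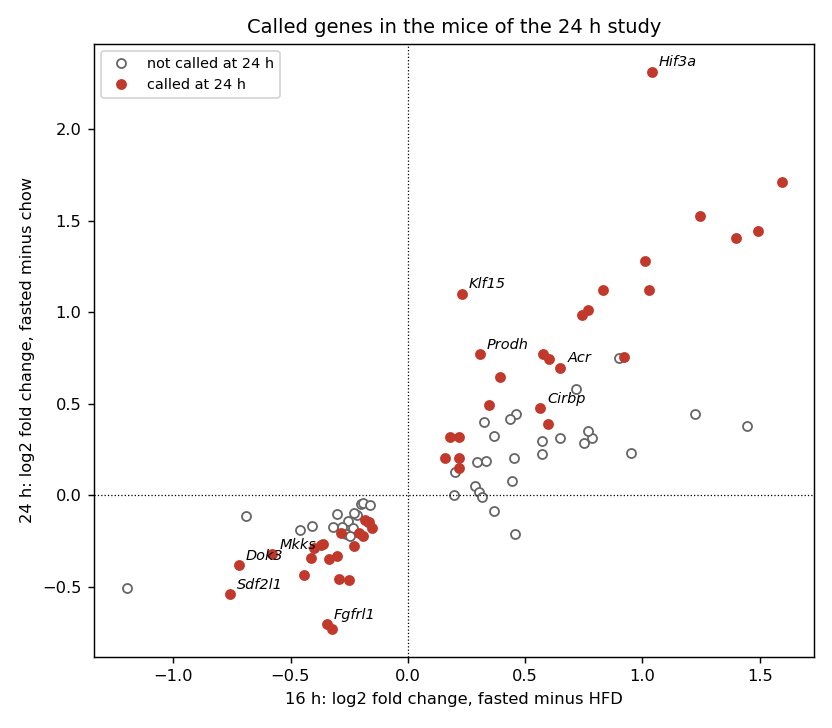
Log2 fold change of the 89 called genes between fasted and HFD mice at 16 h (horizontal) and between fasted and chow mice in the separate 24 h study (vertical), with filled points for genes also called at 24 h. Of the 89, 86 lie in the quadrants of equal sign, 46 of them filled, and the 3 others, which have predicted or clone names, lie between -0.21 and -0.01 at 24 h.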

How the data were processed

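Gene expression was measured by RNA-seq in 5 brain areas of 37 mice. The authors converted base calls with bcl2fastq 2.20.0, aligned reads to GRCm39 with STAR 2.7.3a and deposited raw counts per Ensembl gene, without normalization or filter. The annotation and strand setting of the counting are not given in the sources used here. Counts of the 5 columns under the heading of a mouse were added up, and columns were not assigned to areas. All rows name a gene. Symbols were taken from GENCODE vM39 (56310 of 57010 genes).

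The counts of the 18 mice of the 16 h study were fitted with edgeR 4.0.16 (R 4.3.3; filterByExpr, TMM, quasi-likelihood test) with diet and round as terms, and the 19 mice of the 24 h study with diet. A gene was called at a Benjamini-Hochberg adjusted p under 0.05. Alternatives used DESeq2 1.42.0, limma 3.58.1 (pseudocount 1 CPM), sva 3.50.0, other filters, columns, units and mice. Two-sided exact permutation tests on weights used scipy 1.17.1. Counts per mouse ran from 57962237 to 161577364, which limits genes of low level most, and the reads carry no molecular identifiers. On simulated counts with 200 changed genes among 29465, the test made 137 calls, of which 4 were false. It recovered 3.51% of changes of 0.3, 83.6% of 0.6 and 100% of 1 on the log2 scale. Whether these rates hold for the measured counts was not tested. In those, mice of a cage shared their diet, and area markers varied widely among mice of the same diet. The false calls in the simulation therefore give no error rate for the genes called between fasted and HFD mice.

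Named genes are the 12 called genes with the largest difference in each direction (mean log2 CPM of at least 0, no overlap, not a predicted name), the called members of 28 gene lists (or the 2 with the lowest p), and 8 feeding and stress genes. Other genes named were singled out after their values were seen. The comparison, the lists and this rule were chosen with earlier results of these data known. Quality control labels of single libraries other than the failed alignments were not used in any fit. Promoter sequences are RefSeq, GRCm38.p6.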

Additional observations from a re-analysis of the deposited data

Results flagged for a closer look

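A mouse stood apart from the others of its group, with a gap to the nearest over 0.625 of the range of the group, in 13 of 164 groups of 6 values tested, and chance gives about 1 in 20. Cldn11, a tight junction protein of myelin, had 82.3 CPM in fasted mouse 8, against 127 to 146 CPM in the other 5. Col1a1, a fibrillar collagen of meninges and vessels, had 59.98 CPM in HFD mouse 14, against 18.9 to 31.3 CPM in the other 5. Gabra6, a GABA receptor subunit of cerebellar granule cells, had 6.55 CPM in fasted mouse 9, against 0.511 to 1.44 CPM in the other 5. Gjb6, a gap junction protein of astrocytes, had 68.6 CPM in fasted mouse 11, against 53.6 to 58.1 CPM in the other 5. Kl, Klotho, of the choroid plexus, had 42.1 CPM in HFD mouse 18, against 11.2 to 22.0 CPM in the other 5. Mkks, a chaperonin-like protein, had 14.7 CPM in HFD mouse 18, against 10.6 to 12.0 CPM in the other 5. Mog, a myelin glycoprotein, had 34.9 CPM in fasted mouse 8, against 51.3 to 56.3 CPM in the other 5. Pdia6, a disulfide isomerase, had 46.7 CPM in fasted mouse 12, against 58.5 to 63.5 CPM in the other 5. Pitx1, a pituitary transcription factor, had 1.25 CPM in fasted mouse 11, against 0.319 to 0.624 CPM in the other 5. Slc6a13, a GABA transporter of meninges, had 21.9 CPM in HFD mouse 14, against 5.94 to 10.4 CPM in the other 5. Sst, somatostatin, had 35.1 CPM in fasted mouse 9, against 46.9 to 52.3 CPM in the other 5. Sst had 69.2 CPM in HFD mouse 18, against 48.4 to 52.4 CPM in the other 5. Tsc1, a brake of mTORC1, had 153 CPM in fasted mouse 11, against 139 to 143 CPM in the other 5. Of these genes, Mkks and Pdia6 were called between fasted and HFD mice. Fasted mouse 11 and HFD mouse 18 stood apart in 3 groups each and fasted mice 8 and 9 and HFD mouse 14 in 2 each. Without fasted mouse 12, 0 genes were called (edgeR, 3814 at an unadjusted p under 0.05), Pdia6 included, and without HFD mouse 18, 5 genes were called.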

How the results depend on the processing

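The count of 89 genes moved with most choices. In 30 alternatives, 467 of 810 values of the 27 named called genes no longer passed the test, and 16 values of 54 named genes that were not called passed it. Of the 810 values, 0 changed sign, which the choice of genes called in these same mice, most of them without overlap, favoured from the start. Counts within 1.5 times of 89 were 65 without the round (59 of them among the 89), 86 with DESeq2's size factors, 83 without low columns, 105 with the area mix and 94 with 1 surrogate variable. The count was 239 at an adjusted p under 0.1, 4 with only the 12 fasted and HFD mice, 142 with clock time, 400 with DESeq2 (88 of the 89 among them), 47 without a filter, 148 with columns at equal weight in limma, and 0 with cage sums in edgeR. It was 0 in edgeR without the 4 mice that have a failed library (1798 at an unadjusted p under 0.05, lowest adjusted p 0.724). Fewer samples enter the fits that leave mice out. Without 1 mouse at a time it ran from 0 to 101, with 0 without fasted mice 10, 11 or 12 or HFD mouse 17 (edgeR, 2745 to 3814 at an unadjusted p under 0.05). It was 3 without fasted mouse 9, 36 without fasted mouse 7 and 45 without fasted mouse 8, and 1, 5, 19 and 53 without HFD mice 15, 18, 16 and 13. Without 1 cage at a time it ran from 0 to 61, with 0 without cages 38, 39 or 42 (edgeR, 1951 to 3039 at an unadjusted p under 0.05) and 6 and 49 without HFD cages 41 and 40. The cause of the other changes was not tested. The ER chaperones had between 12 and 13 negative estimates, between 10 and 13 at an unadjusted p under 0.05 and between 0 and 10 calls in the 30 alternatives, and the heat shock proteins between 12 and 14, 4 and 11, and 0 and 3.

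The difference in weight change was -4.03 percentage points on cage means as well, with an exact permutation p of 0.100, the smallest that 3 cages against 3 allow. It ran from -4.52 to -3.28 without 1 mouse at a time (exact permutation p = 0.00433 each), had p = 0.00926 with diets exchanged only within rounds, and was -1.0 g in grams (exact permutation p = 0.00216). At 24 h, 3307 genes were called, with 2775 without mice 1423 and 1454, 3518 without low columns and 4213 with DESeq2. No paired analysis was possible because a mouse number occurs in 1 group only, and the round of cages was a term of the fit instead. Depth limits the transcripts with a mean log2 CPM under 0 most, 18 of the 89.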
